A study of Homo sapiens with 12 samples.

Results

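The cytosolic ribosomal protein genes encode the proteins that, with ribosomal RNA, build the small and the large ribosomal subunit. They were taken by name, as protein-coding genes on chromosomes 1 to 22 or X whose symbol starts with RPS (small subunit) or RPL (large subunit) and follows the naming of these proteins and their paralogs. This gave 85 of the 60675 genes of the table, 32 RPS and 53 RPL genes, spread over 21 chromosomes. Of these, 83 passed the filter on low counts and were tested. RPL3L and RPL10L were not tested, with 42 and 14 reads in all 12 libraries together. FAU and GNB2L1 also encode ribosomal proteins, but carry other names and are described separately.

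Each ribosome holds its proteins in fixed proportion, and the mRNAs that encode them are among the most abundant of a growing cell. Most of these mRNAs begin with a C followed by a run of pyrimidines, the terminal oligopyrimidine (TOP) tract, through which the kinase mTOR and the RNA-binding protein LARP1 control their translation and stability. B cells that are activated through their receptor grow and make more ribosomes before they divide. RPL5 and RPL11 have a further role, as both bind the ubiquitin ligase MDM2 when they are not built into ribosomes.

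The RNA came from U-2932, an established line of human diffuse large B cell lymphoma that stably expressed Roquin2, an RNA-binding protein that promotes mRNA decay, with the Y691F substitution or as wild type (WT). Cells were given F(ab')2-IgM, an antibody fragment directed at the surface receptor of B cells (10 µg/ml, 12 h), or were left untreated. The 4 groups were Y691F with IgM, Y691F untreated, WT with IgM and WT untreated, with 3 libraries each that the submitters describe as independent biological replicates. All groups thus carried an introduced Roquin2, and no source used here says whether each form was 1 line or several. RC3H2, the gene of Roquin2, stood at 206 ± 1.79 CPM (read counts scaled to a common library size, after TMM adjustment of the library totals) in Y691F cells with IgM and at 209 ± 0.880 CPM in untreated Y691F cells. It stood at 121 ± 1.7998 CPM in WT cells with IgM and at 111 ± 1.08 CPM in untreated WT cells (SD, n = 3 each). No source used here says whether reads of the introduced Roquin2 count on RC3H2. The substitution and the level measured on RC3H2 differed together between the lines, and their effects cannot be told apart.

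The libraries held 16465393 to 21478790 counts, and replicates varied with a biological coefficient of variation of 2.51%. The tested ribosomal protein genes had between 4635 (RPS27L) and 559315 (RPS2) counts over all libraries. Differences of a few percent could pass the test in well-counted genes, but not in those with few counts. For the log2 change with IgM in WT the standard error was 0.0673 in RPS27L, against 0.0276 in RPS9. All 8 B cell markers examined were tested and summed to 10254 to 14460 CPM per library. The 8 T and NK cell markers and the 8 myeloid markers summed to under 5 CPM in each library, and CD3D, CD2 and S100A8 had no read in any. The T and NK cell sum was 3.55 to 4.84 CPM in Y691F cells with IgM and 2.69 to 3.32 CPM in untreated Y691F cells, against 0.510 to 1.24 CPM in WT cells with IgM and 0.689 to 1.49 CPM in untreated WT cells. NCAM1 had a mean of 2.63 CPM with IgM and 1.43 CPM untreated in Y691F, against 0.0752 and 0.0665 CPM in WT. CD8A had 1.30 and 1.35 CPM in Y691F, against 0.631 and 0.806 CPM in WT. Only these 2 of the 8 T and NK cell markers passed the filter on low counts. The part of this sum in the differences between Y691F and WT was not tested. The fibroblast and epithelial markers summed to 20.7 to 27.2 CPM, most of it EPCAM.

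The TOP tract is written in the genome at the start of transcription, so the sequences around the annotated starts are shown first, for genes that the results below turn on. RefSeq start sites (GRCh38.p14) were matched by symbol for 68 of the 85 genes. A C followed by at least 4 pyrimidines began at the annotated first base in 43 of the 68 genes (63.2%), against 4.91% of the other tested genes. Such a tract began within 10 bases of the annotated start in 57 of the 68 genes (83.8%), against 33.8% of the other tested genes. The windows below run 5′ to 3′ from 15 bases before to 15 bases from the start on, with the longest such tract that begins within 10 bases of the start in capitals. The first 5 genes rose with IgM in both forms, the next 4 fell or did not rise, and the last 3 are paralogs without such a tract near the start.
RPL22L1 (chr3:170870181-170870210, minus strand): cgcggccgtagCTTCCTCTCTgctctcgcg
RPS9 (chr19:54200843-54200872, plus strand): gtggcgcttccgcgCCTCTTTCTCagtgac
RPL35A (chr3:197950175-197950204, plus strand): cggcggggcctcgtCCTTCTCTTaccgcca
RPL9 (chr4:39458908-39458937, minus strand): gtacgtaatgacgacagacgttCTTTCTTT
RPL10 (chrX:154398050-154398079, plus strand): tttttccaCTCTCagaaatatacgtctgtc
RPL22 (chr1:6199581-6199610, minus strand): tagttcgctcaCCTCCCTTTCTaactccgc
RPS18 (chr6:33272060-33272089, plus strand): cgcgtcacttccgCTCTCTCTTCCacagga
RPS3A (chr4:151099613-151099642, plus strand): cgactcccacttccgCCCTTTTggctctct
RPL11 (chr1:23691764-23691793, plus strand): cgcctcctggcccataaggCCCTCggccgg
RPL26L1 (chr5:172958714-172958743, plus strand): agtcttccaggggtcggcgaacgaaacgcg
RPS27L (chr15:63157463-63157492, minus strand): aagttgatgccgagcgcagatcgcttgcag
RPL7L1 (chr6:42879601-42879630, plus strand): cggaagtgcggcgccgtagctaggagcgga
A tract at the annotated start was thus present in genes that moved in opposite directions with IgM, such as RPS9 and RPS18. The median log2 change with IgM was 0.27 in Y691F and 0.30 in WT over the 43 genes with a tract at the start, and 0.29 in Y691F and 0.31 in WT over the 24 tested genes with a matched start and no tract there. The annotated start may differ from the start used in these cells. The motif CCGGAA, the core of sites bound by ETS factors, occurred on either strand in the 300 bases around the start of 54.4% of the 68 genes, against 27.6% of the other tested genes. The E-box CACGTG, bound by MYC among others, occurred in 5.88% of them, against 9.53% of the other tested genes.

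Together the ribosomal protein genes took 5.67%, 5.78% and 5.77% of all counts in Y691F cells with IgM, against 5.29%, 5.47% and 5.31% in untreated Y691F cells. They took 5.999%, 5.98% and 5.99% in WT cells with IgM, against 5.45%, 5.48% and 5.47% in untreated WT cells. In both forms the IgM libraries lay above all untreated libraries, and with IgM the Y691F libraries lay below all WT libraries. Without IgM, the ranges of Y691F and WT overlapped, as the share in the second Y691F library was as high as in WT. Mitochondrial genes took 8.11% ± 0.384 of the counts in Y691F cells with IgM and 8.79% ± 0.0329 in untreated Y691F cells, and 7.88% ± 0.253 in WT cells with IgM and 8.50% ± 0.232 in untreated WT cells (SD, n = 3 each). As a share of the other counts the ribosomal protein genes took 6.25% ± 0.0427 in Y691F cells with IgM and 5.87% ± 0.114 in untreated Y691F cells, and 6.502% ± 0.0280 in WT cells with IgM and 5.98% ± 0.0180 in untreated WT cells. Counts on RPL genes exceeded those on RPS genes 1.60-fold with IgM and 1.57-fold untreated in Y691F, and 1.58-fold with IgM and 1.53-fold untreated in WT. As the libraries are bulk RNA, less mRNA per cell and fewer cells with the mRNA cannot be told apart.

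**Figure D1:**
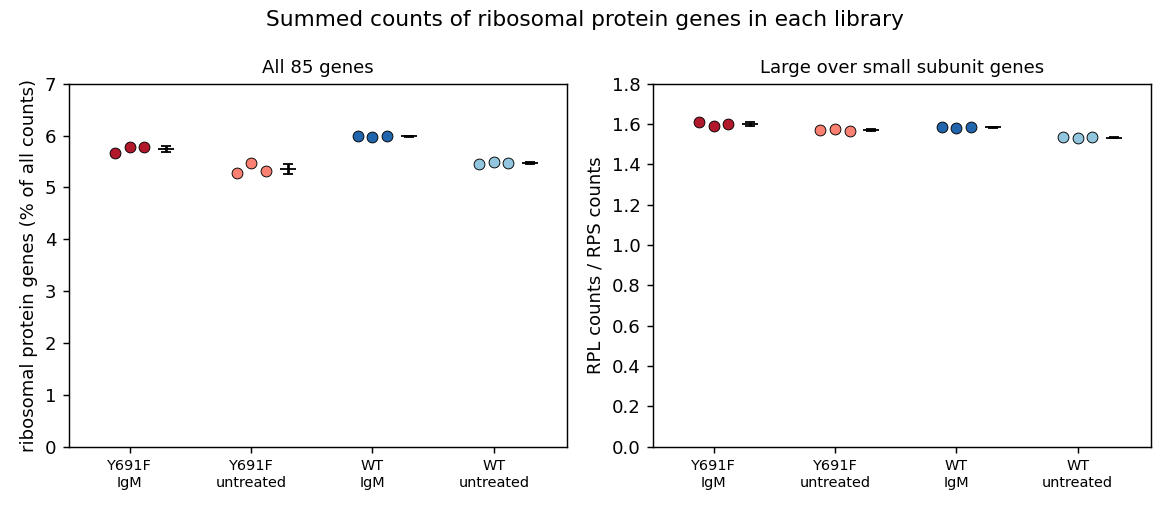
Summed counts of the 85 ribosomal protein genes as a percent of all counts (left) and RPL over RPS counts (right) in each library; points are libraries, and the bar to their right is the mean with SD (n = 3). The IgM libraries lie between 5.67% and 5.999% and the untreated libraries between 5.29% and 5.48%.

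The IgM response was asked in each Roquin2 form, and nearly all ribosomal protein genes rose by a moderate amount in both. After TMM scaling, 73 of the 83 tested genes rose and 7 fell with IgM in Y691F, where 37.1% of all tested genes rose and 38.7% fell (75.8% either way). In WT, 72 rose and 5 fell, where 38.4% of all tested genes rose and 38.5% fell, 76.9% in all (edgeR's quasi-likelihood test, adjusted p under 0.05 over all tested genes). The median log2 change of the ribosomal protein genes was 0.30 in Y691F and 0.31 in WT, against -0.011 and 0.0016 over all tested genes. In 73 genes in each form the 3 IgM libraries lay above all 3 untreated libraries, which held for 37.2% of all tested genes in Y691F and 38.9% in WT. The IgM libraries lay below all untreated ones in 6 genes in Y691F and 5 in WT, against 38.4% of all tested genes in Y691F and 38.8% in WT. Of the 83 genes, 67 had a log2 change between 0.1 and 0.6 in both forms.

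The size of this rise depends on the scaling, because the TMM factors were 0.939 to 0.956 in the IgM libraries and 1.04 to 1.07 in the untreated libraries. With library totals alone the median of all tested genes moved by -0.17 in Y691F and -0.13 in WT. The median of the ribosomal protein genes was then 0.13 in Y691F and 0.17 in WT, with 56 higher and 11 lower in Y691F and 61 higher and 11 lower in WT. The gap between the median of the ribosomal protein genes and that of all tested genes was 0.31 in Y691F and 0.30 in WT under either scaling. This likeness is by construction, as a change of scaling shifts all genes alike. With a filter of 5 CPM in 3 libraries the gap was 0.25 in each form. The split of all calls moved as well, to 36.9% higher in Y691F and 40.7% in WT, against 48.9% and 49.98% with TMM.

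**Figure D2:**
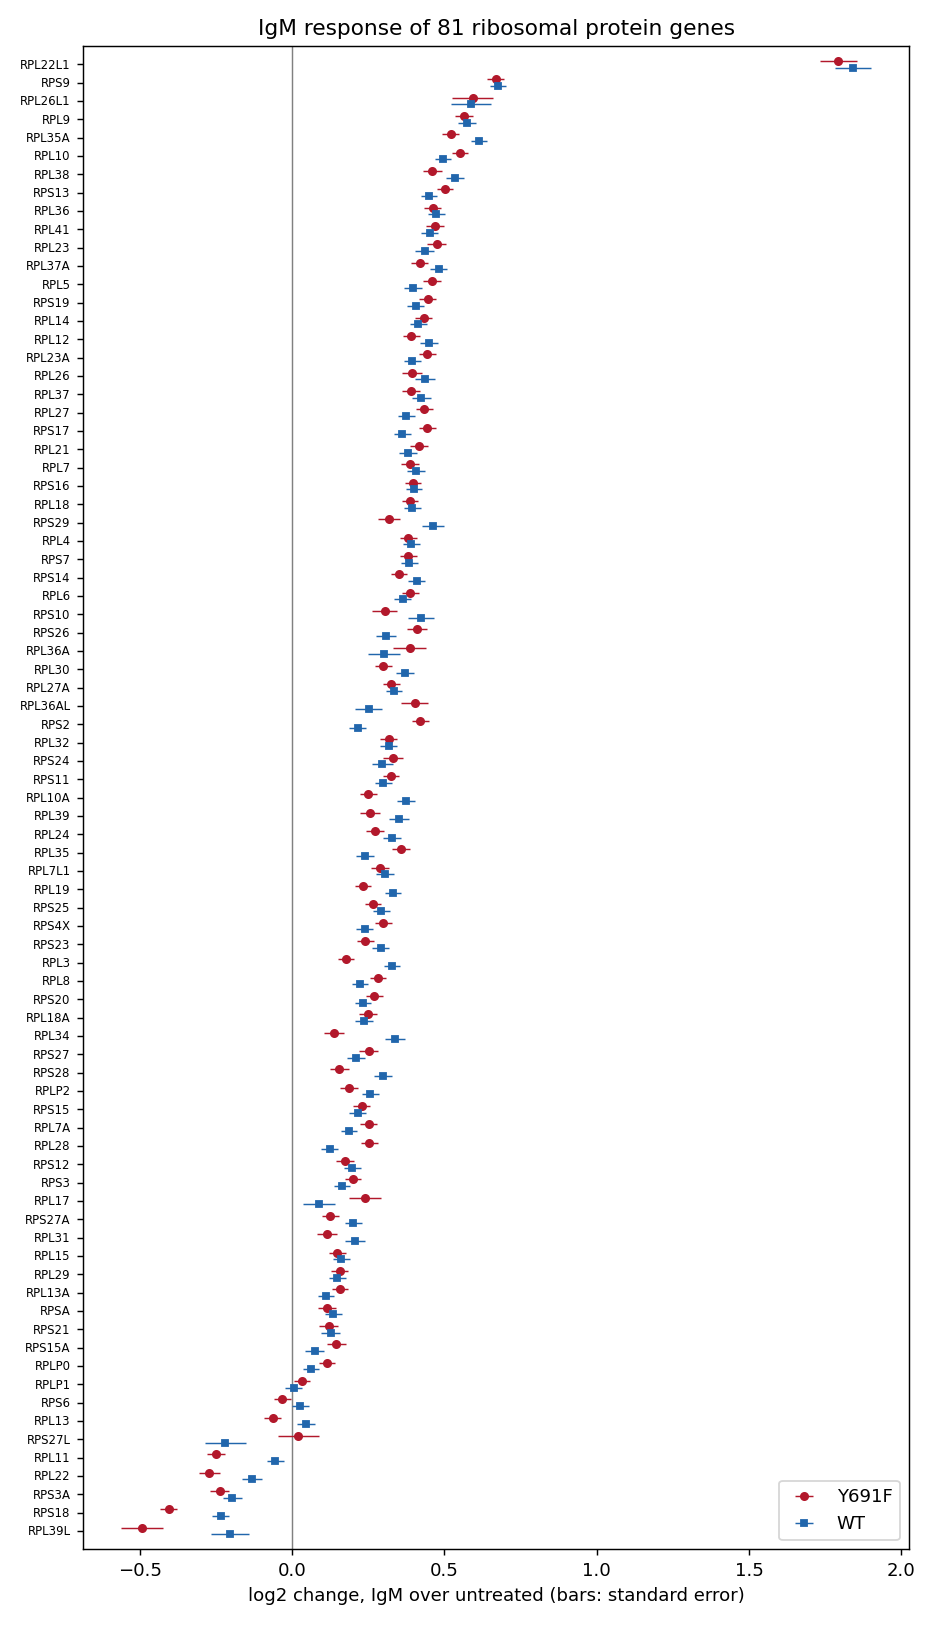
Log2 change with IgM over untreated for 81 of the tested ribosomal protein genes, ordered by their mean change, in Y691F (circles) and WT (squares), with the standard error as bars. RPL22L1 stands apart at 1.79 and 1.84, most genes lie between 0.1 and 0.6, and RPL39L, RPS18, RPS3A and RPL22 lie below 0 in both forms.

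The comparisons of IgM with untreated cells in Y691F and in WT share no library. Across the 83 genes their log2 changes had a Pearson r of 0.94 and a Spearman rho of 0.88, and without RPL22L1 r was 0.91. Genes are not independent replicates, so this describes likeness only. A rise was called in both forms for 72 genes and a fall in both for 4 genes, which were RPL22, RPL39L, RPS18 and RPS3A. RPL17 was called higher in Y691F, and RPL11 and RPL13 lower in Y691F, with no call in WT. RPS27L was called lower in WT, with no call in Y691F. RPLP1 and RPS6 were called in neither form. The joint counts and correlations were not computed over all tested genes, so they cannot be set against a background. A test of the difference between the forms was passed by RPL11 and RPL13, and missed by RPL17 and RPS27L.

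Of the proteins of the small subunit body, 14 of 17 genes rose in each form (all tested genes 37.1% in Y691F and 38.4% in WT). The gene with the largest rise was RPS9 (ENSG00000170889, chromosome 19, 54200742 to 54249003, plus strand), whose protein lines the channel where mRNA enters the ribosome. It had 939, 988 and 936 CPM in Y691F cells with IgM, against 599.6, 611 and 591 CPM in untreated Y691F cells (log2 0.67, SE 0.0276, adjusted p = 1.06e-37). In WT it had 947, 986 and 989 CPM with IgM, against 623, 605 and 601 CPM untreated (log2 0.68, SE 0.0276, adjusted p = 4.54e-38). The IgM libraries of RPS9 lay far above the untreated ones in both forms, and its ranges in Y691F and WT overlapped. RPS2, whose protein sits at the same mRNA entry, was the most abundant by counts. Its level was 2899, 2868 and 2917 CPM in Y691F cells with IgM, against 2134, 2237 and 2114 CPM untreated, a 1.34-fold rise (log2 0.42, SE 0.0267, adjusted p = 1.39e-25). In WT cells RPS2 had 2719.8, 2707 and 2733 CPM with IgM, against 2402, 2317 and 2312 CPM untreated (log2 0.21, SE 0.0267, adjusted p = 1.74e-11), so its libraries separated in both forms, by more in Y691F.

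RPS3A, a protein of the platform of the small subunit, fell. Its CPM was 228, 234 and 239 in Y691F cells with IgM and 264.5, 281 and 281 in untreated Y691F cells (log2 -0.24, SE 0.0304, adjusted p = 4.49e-11). WT cells had 244, 241 and 236 CPM with IgM and 269, 279 and 278 CPM untreated (log2 -0.20, SE 0.0305, adjusted p = 1.86e-08), and the libraries did not overlap in either form. RPS3A is among the genes with many reads on named pseudogenes, which held 96.5% as many counts as the gene itself. RPS6, the protein phosphorylated by the S6 kinases downstream of mTOR, was not called. It had 1202, 1183 and 1246 CPM in Y691F cells with IgM and 1179, 1286 and 1249 CPM untreated, and 1304, 1294 and 1297 CPM in WT cells with IgM and 1251, 1304 and 1266 CPM untreated, and the libraries overlapped (log2 -0.033 in Y691F, adjusted p = 0.281, and 0.027 in WT, adjusted p = 0.378). With library totals alone RPS6 was called lower in both forms (-0.20 in Y691F, and -0.11 in WT). In Y691F it was also called lower with a filter of 5 CPM (-0.086) and without the first untreated Y691F library (-0.067).

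In the head of the small subunit 13 of 14 genes rose in each form (all tested genes 37.1% in Y691F and 38.4% in WT). The exception was RPS18 (ENSG00000231500, chromosome 6, 33272010 to 33276510, plus strand), a protein of the head that faces the large subunit. RPS18 had 629, 679.6 and 648 CPM in Y691F cells with IgM, against 846, 891 and 855 CPM in untreated Y691F cells (log2 -0.41, SE 0.0278, adjusted p = 1.29e-23). WT cells held 772, 794 and 787 CPM with IgM, against 929, 920.2 and 920.3 CPM untreated (log2 -0.24, SE 0.0277, adjusted p = 2.13e-12). Every IgM library of RPS18 was below every untreated library of its form, and the lowest values of all groups were those of Y691F with IgM. The median log2 change of all 32 RPS genes was 0.26 in Y691F and 0.24 in WT, and that of the 51 tested RPL genes 0.33 in Y691F and 0.34 in WT.

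The 5S particle joins RPL5 and RPL11 with the 5S ribosomal RNA before it enters the large subunit, and its pair of mRNAs moved apart. RPL5 (ENSG00000122406, chromosome 1, 92832025 to 92841924, plus strand) had 1048, 1030.2 and 1090.5 CPM in Y691F cells with IgM, against 726, 796 and 784 CPM untreated (log2 0.46, SE 0.0301, adjusted p = 2.61e-22), and 1073, 1049 and 1069 CPM in WT cells with IgM, against 767, 844 and 813 CPM untreated (log2 0.40, SE 0.0301, adjusted p = 2.77e-19). RPL11 (ENSG00000142676, chromosome 1, 23691779 to 23696425, plus strand) had 481, 510.3 and 523 CPM in Y691F cells with IgM, against 582.0, 622 and 595 CPM untreated (log2 -0.25, SE 0.0292, adjusted p = 2.12e-12). In WT, RPL11 had 638, 623 and 642 CPM with IgM, against 639, 666 and 673 CPM untreated, with overlapping libraries and no call (log2 -0.055, adjusted p = 0.0748). RPL11 was called lower in WT under 5 of 22 alternatives, among them library totals alone (-0.19), a filter of 5 CPM (-0.098) and the fit without the first untreated WT library (-0.076). RPL5 thus rose in both forms, while RPL11 fell in Y691F and lay near the threshold for a fall in WT. Of the counts on the pair, RPL11 held 32.3% ± 0.842 in Y691F cells with IgM and 43.8% ± 0.676 in untreated Y691F cells, and 37.4% ± 0.143 in WT cells with IgM and 44.9% ± 0.731 in untreated WT cells (SD, n = 3 each).

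**Figure D3:**
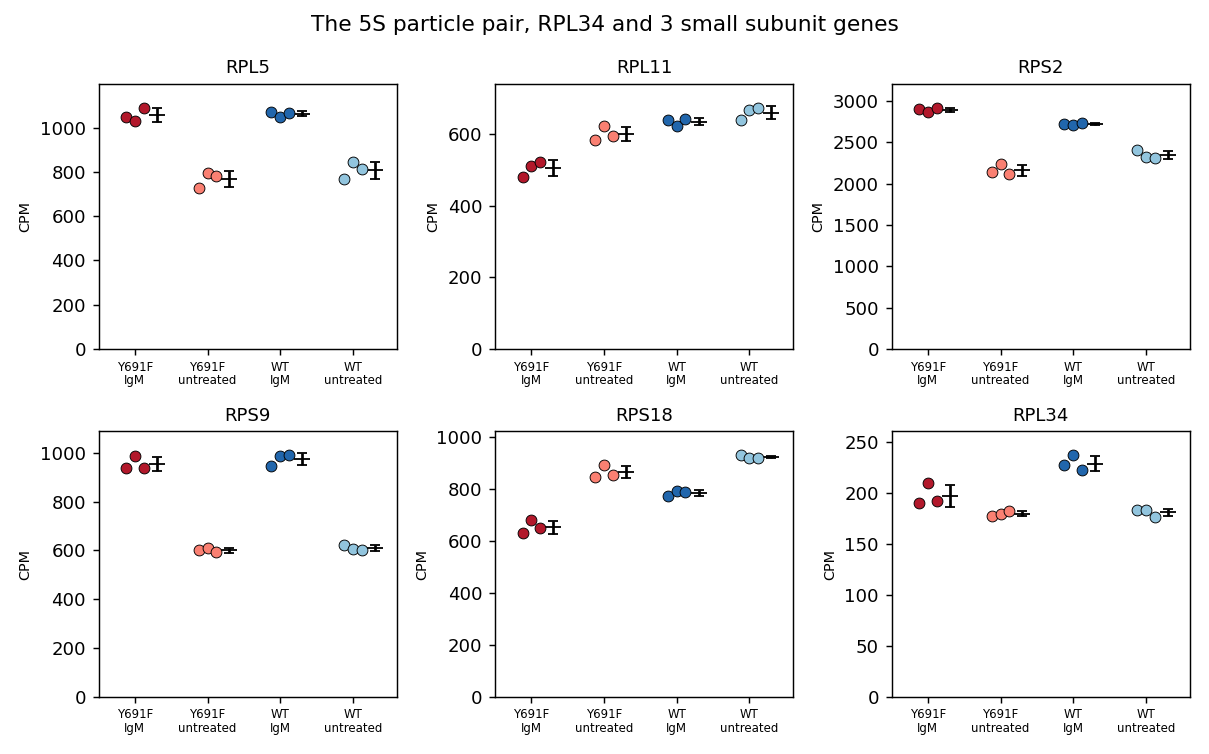
CPM of RPL5, RPL11, RPL34 and 3 small subunit genes in each library; points are libraries, and the bar to their right is the mean with SD (n = 3). RPL5 and RPS9 are higher with IgM in both forms, RPS18 is lower, and RPL11 is lowest in Y691F with IgM.

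The stalk of the large subunit, which recruits the translation factors that act as GTPases, is made of RPLP0, RPLP1 and RPLP2 and rests on RPL12. RPLP1 had 1481, 1456 and 1434 CPM in Y691F cells with IgM and 1419, 1461 and 1397 CPM untreated, and 1316, 1267 and 1333 CPM in WT cells with IgM and 1346, 1265 and 1293 CPM untreated. The IgM and untreated libraries of RPLP1 overlapped in both forms (log2 0.032 in Y691F, adjusted p = 0.291, and 0.0046 in WT, adjusted p = 0.885), and with library totals alone it was called lower (-0.14 and -0.13). RPLP0 had 2327, 2401 and 2363 CPM in Y691F cells with IgM, against 2179, 2227 and 2142 CPM untreated, and 2187, 2168 and 2146 CPM in WT cells with IgM, against 2093, 2075 and 2064 CPM untreated. Its rise was small (log2 0.12 in Y691F, adjusted p = 6.06e-05, and 0.061 in WT, adjusted p = 0.0303), and with library totals alone it turned into a fall in both forms (-0.055 and -0.073). RPLP2 had 839, 919 and 845 CPM in Y691F cells with IgM, against 754, 779 and 754 CPM untreated, and 933, 942 and 947 CPM in WT cells with IgM, against 789.5, 769.8 and 803 CPM untreated. RPLP2 rose by 0.19 in Y691F (adjusted p = 9.43e-09) and 0.26 in WT (adjusted p = 1.66e-13), and RPL12 by 0.39 and 0.45 (adjusted p = 1.34e-22 and 3.82e-26). The log2 values of the 3 stalk genes were all below that of RPL12, a difference that was not tested.

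Of the 8 genes for proteins of the tunnel through which the nascent chain leaves and of its rim, 8 rose in Y691F and 7 in WT (all tested genes 37.1% and 38.4%). RPL23A, at the docking site of the signal recognition particle, had 1074, 1036 and 1105 CPM in Y691F cells with IgM, against 765, 822 and 777 CPM untreated (log2 0.44, adjusted p = 1.39e-25), and 1199.8, 1153 and 1181 CPM in WT cells with IgM, against 918, 889.7 and 882 CPM untreated (log2 0.39, adjusted p = 9.75e-23). Its libraries separated in each form. RPL17, the member of the group not called in WT (log2 0.088, adjusted p = 0.113), had 38.9, 44.8 and 43.1 CPM in Y691F cells with IgM, against 33.95, 35.4 and 38.2 CPM untreated (log2 0.24, adjusted p = 3.88e-05). The table also lists the readthrough genes RPL17-C18orf32, RPL36A-HNRNPH2 and RPS10-NUDT3, all with 0 counts, and RPL17, RPL36A and RPS10 had 9162, 10789 and 18560 counts, among the lowest of the family. No source used here says how reads that fit a gene and its readthrough form were counted, so the levels of these 3 genes are uncertain.

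Among the other large subunit genes the largest rises, averaged over both forms, were those of RPL9, RPL35A, RPL10 and RPL38. RPL35A had 799, 798 and 780.5 CPM in Y691F cells with IgM, against 541, 580.2 and 536 CPM untreated (log2 0.52, SE 0.0278, adjusted p = 3.23e-30), and 884, 883 and 874 CPM in WT cells with IgM, against 568, 584 and 574 CPM untreated (log2 0.61, SE 0.0278, adjusted p = 5.02e-35). RPL9 had 462, 453 and 459 CPM in Y691F cells with IgM, against 302, 309 and 319 CPM untreated (log2 0.56, SE 0.0290, adjusted p = 3.19e-31), and 484, 489 and 476 CPM in WT cells with IgM, against 328, 334 and 310.3 CPM untreated (log2 0.57, SE 0.0290, adjusted p = 7.91e-32). Both genes were higher in every IgM library than in any untreated one. RPL10, whose protein joins the large subunit late in its maturation, had 1456, 1511 and 1469.8 CPM in Y691F cells with IgM, against 999, 1035 and 997 CPM untreated (log2 0.55, SE 0.0266, adjusted p = 4.52e-33), and 1385, 1377 and 1378 CPM in WT cells with IgM, against 997, 979 and 962 CPM untreated (log2 0.49, SE 0.0267, adjusted p = 4.98e-30). RPL38, which in mouse embryos is needed for the translation of a subset of Hox mRNAs, rose by 0.46 in Y691F and 0.53 in WT (adjusted p = 1.96e-24 and 1.52e-28). Of the 32 genes of this group, 30 rose in each form (all tested genes 37.1% in Y691F and 38.4% in WT). RPL22 fell in both forms, and RPL13, with overlapping libraries, was called lower in Y691F (log2 -0.064, adjusted p = 0.0367) and not in WT (log2 0.046, adjusted p = 0.137). The call of RPL13 in Y691F was lost under 10 of 22 alternatives, and without the second untreated Y691F library its log2 change was -0.025. When the counts of its named pseudogenes were added, this call was lost (-0.056, adjusted p = 0.0583) and RPL13 was called higher in WT (0.060, adjusted p = 0.0427).

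The paralogs, copies of a ribosomal protein gene that encode a closely related protein, held the largest changes. RPL22L1 (ENSG00000163584, chromosome 3, 170864875 to 170870483, minus strand) had 48.1, 51.4 and 51.7 CPM in Y691F cells with IgM, against 15.2, 14.4 and 13.9 CPM untreated. In WT it had 48.97, 51.9 and 50.9 CPM with IgM, against 14.7, 13.4 and 14.3 CPM untreated. This was a 3.47-fold rise in Y691F (log2 1.79, SE 0.0594, adjusted p = 1.66e-44) and a 3.58-fold rise in WT (log2 1.84, SE 0.0604, adjusted p = 7.22e-45). RPL22, the gene it resembles, which is not required for translation as such in mouse but is needed for lymphocyte development there, had 158, 169 and 169 CPM in Y691F cells with IgM, against 188, 203 and 208 CPM untreated (log2 -0.27, SE 0.0334, adjusted p = 1.12e-11). In WT, RPL22 had 189, 193 and 187 CPM with IgM, against 205, 208 and 211 CPM untreated (log2 -0.13, SE 0.0330, adjusted p = 2.63e-04). The paralog rose and RPL22 fell in both forms, so that RPL22L1 held 23.4% ± 0.0556 of the counts on the pair in Y691F cells with IgM and 6.79% ± 0.644 in untreated Y691F cells. In WT it held 21.1% ± 0.386 with IgM and 6.38% ± 0.320 untreated (SD, n = 3 each). Per length, on the RPKM values deposited by the authors, RPL22L1 stood at 0.642 ± 0.00199 of RPL22 in Y691F cells with IgM and 0.154 ± 0.0157 untreated, and at 0.562 ± 0.0130 in WT cells with IgM and 0.144 ± 0.00769 untreated. These ratios rest on the gene lengths that the authors used.

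RPL39L, whose mouse counterpart is abundant in testis, moved the opposite way to RPL39, a protein of the exit tunnel. RPL39L had 16.8, 16.6 and 15.3 CPM in Y691F cells with IgM, against 23.9, 22.9 and 21.8 CPM untreated (log2 -0.49, SE 0.0687, adjusted p = 7.23e-10), and 24.8, 26.4 and 24.2 CPM in WT cells with IgM, against 29.1, 27.9 and 30.2 CPM untreated (log2 -0.20, SE 0.0615, adjusted p = 0.00207). RPL39 had 236, 251 and 238 CPM in Y691F cells with IgM, against 195, 202 and 211 CPM untreated (log2 0.25, SE 0.0323, adjusted p = 3.53e-11), and 267, 256 and 250.1 CPM in WT cells with IgM, against 195, 207 and 204 CPM untreated (log2 0.35, SE 0.0323, adjusted p = 7.02e-17). The paralog fell and RPL39 rose in both forms. Of the counts on this pair RPL39L held 6.29% ± 0.323 in Y691F cells with IgM and 10.2% ± 0.783 untreated, and 8.89% ± 0.424 in WT cells with IgM and 12.6% ± 0.623 untreated (SD, n = 3 each).

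In the remaining pairs the shares of the paralogs moved by smaller factors. RPL26L1 had 26.6, 25.9 and 27.6 CPM in Y691F cells with IgM, against 17.2, 19.4 and 16.5 CPM untreated (log2 0.59, SE 0.0665, adjusted p = 3.77e-13), and 30.2, 28.9 and 31.8 CPM in WT cells with IgM, against 20.1, 20.9 and 19.2 CPM untreated (log2 0.59, SE 0.0643, adjusted p = 1.32e-13). RPL26 had 228, 234 and 253 CPM in Y691F cells with IgM, against 177, 187 and 181 CPM untreated, and 267, 263 and 258 CPM in WT cells with IgM, against 187, 200.3 and 197 CPM untreated, a rise of 0.39 and 0.43 (adjusted p = 1.76e-18 and 8.56e-21). Paralog and gene rose together here, and RPL26L1 held 8.88% to 10.3% of the counts of the pair in all 4 groups (mean of 3 libraries). RPS27L had 21.6, 20.97 and 20.2 CPM in Y691F cells with IgM and 19.97, 21.1 and 20.9 CPM untreated, and 19.2, 18.6 and 19.7 CPM in WT cells with IgM and 23.2, 21.2 and 22.6 CPM untreated. It was called lower in WT (log2 -0.22, adjusted p = 0.00249) and not in Y691F (log2 0.021, adjusted p = 0.786), and the test of the difference between the forms missed the threshold (adjusted p = 0.0503). RPS27 had 396, 402 and 434 CPM in Y691F cells with IgM, against 337, 351 and 348 CPM untreated, and 398, 387 and 392 CPM in WT cells with IgM, against 344, 349 and 324 CPM untreated. RPS27 rose in both forms (log2 0.25, adjusted p = 7.70e-12 in Y691F, and log2 0.21, adjusted p = 3.69e-09 in WT).

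RPL7L1, whose protein acts in the assembly of the large subunit, had 250.4, 256 and 255 CPM in Y691F cells with IgM, against 207, 205 and 212 CPM untreated, and 268, 278 and 268 CPM in WT cells with IgM, against 220.2, 219 and 219 CPM untreated. RPL7 had 381, 401 and 410.1 CPM in Y691F cells with IgM, against 301, 305 and 305 CPM untreated, and 434, 423 and 414 CPM in WT cells with IgM, against 317, 329 and 311 CPM untreated. Both rose, RPL7L1 by 0.29 and 0.31 and RPL7 by 0.39 and 0.41 in Y691F and WT (adjusted p at most 1.70e-14). RPL36AL had 68.9, 73.00 and 76.2 CPM in Y691F cells with IgM, against 55.02, 57.5 and 52.3 CPM untreated, and 60.5, 63.7 and 62.6 CPM in WT cells with IgM, against 52.6, 53.4 and 50.7 CPM untreated. RPL36A had 53.3, 53.05 and 56.1 CPM in Y691F cells with IgM, against 36.8, 41.99 and 45.7 CPM untreated, and 54.96, 53.9 and 56.9 CPM in WT cells with IgM, against 41.02, 45.6 and 47.7 CPM untreated. This pair rose too, RPL36AL by 0.40 in Y691F and 0.25 in WT and RPL36A by 0.39 and 0.30. The untested RPL3L, the form of RPL3 known from striated muscle, had 8, 7 and 8 reads in Y691F cells with IgM, 3, 4 and 2 in untreated Y691F cells, 4, 2 and 3 in WT cells with IgM, and 0, 0 and 1 in untreated WT cells. RPL3 had 1144, 1155 and 1178 CPM in Y691F cells with IgM, against 998, 1048 and 1029 CPM untreated (log2 0.18, adjusted p = 6.70e-09), and 1222, 1250.4 and 1249 CPM in WT cells with IgM, against 984, 996 and 982 CPM untreated (log2 0.33, adjusted p = 9.43e-20), a smaller rise in Y691F (log2 -0.15, adjusted p = 9.71e-04 for the difference). RPL10L, known from testis, had at most 3 reads in any library.

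**Figure D4:**
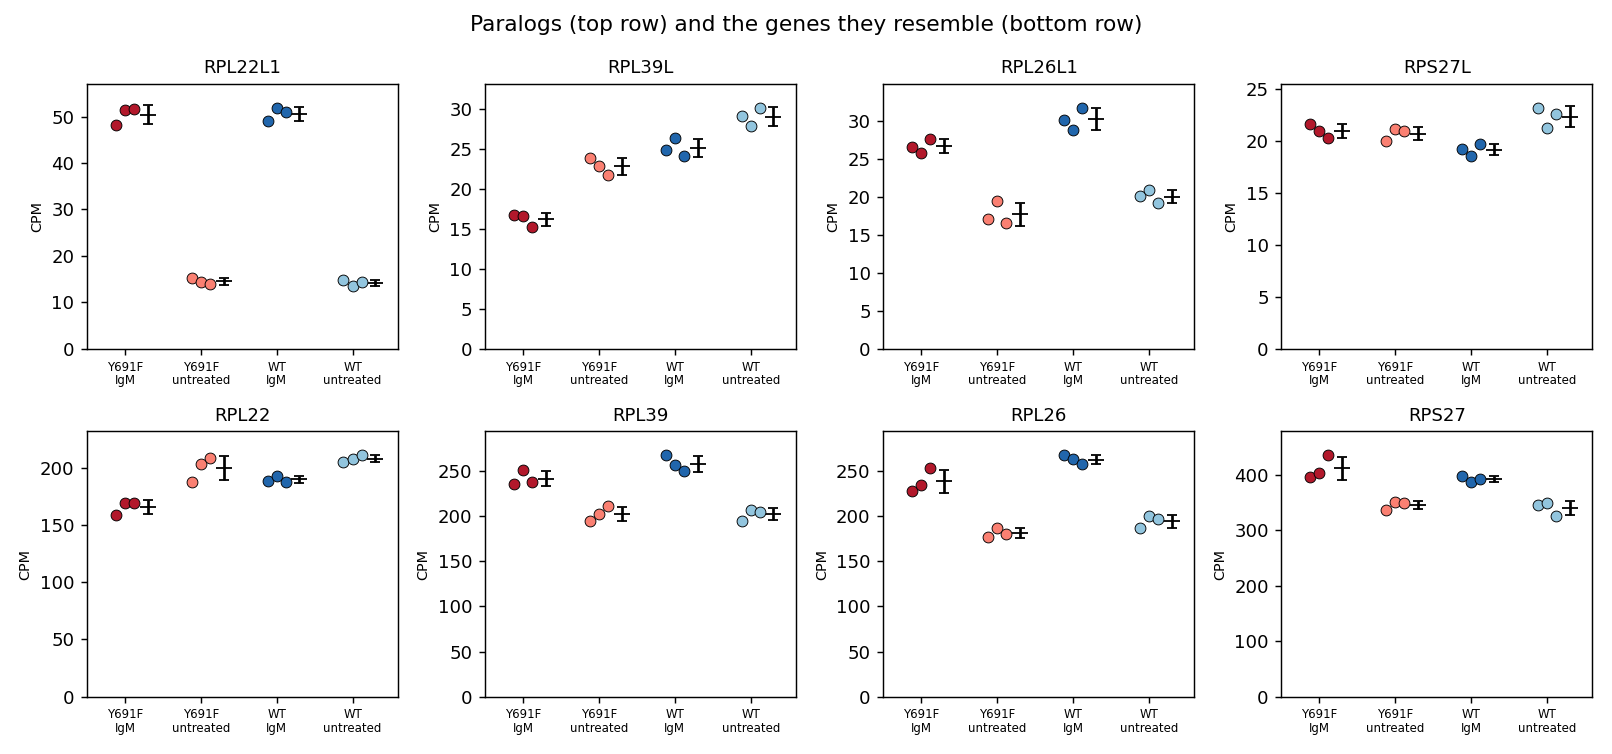
CPM of 4 paralogs (top row) and of the genes they resemble (bottom row) in each library; points are libraries, and the bar to their right is the mean with SD (n = 3). RPL22L1 rises with IgM while RPL22 falls, RPL39L falls while RPL39 rises, and RPL39L is lowest in Y691F with IgM.

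During receptor stimulation the Y691F cells differed little from WT cells in their ribosomal protein mRNAs, and mostly downward. Of the 83 genes, 43 were lower and 7 higher in Y691F, where 20.2% of all tested genes were lower and 21.9% higher (42.1% either way). The median log2 difference was -0.078, against -0.0049 over all tested genes. In 50 genes the 3 Y691F libraries lay below all 3 WT libraries, and in 9 above, which held for 24.5% and 25.6% of all tested genes. Without IgM, 31 of the 83 genes were lower and 2 higher in Y691F, where 16.1% of all tested genes were lower and 15.1% higher (31.2% either way), and the median was -0.060, against -0.0078. Here the 3 Y691F libraries lay below WT in 32 genes and above in 3, which held for 20.4% and 19.6% of all tested genes. The untreated count rests in part on single libraries. It was 17 without the first untreated Y691F library and 40 without the second, the library whose share of ribosomal protein counts was 5.47%. Over all tested genes 2052 and 2320 were lower in these 2 fits, against 2437 with every library.

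The largest deficits in Y691F with IgM were those of RPL39L, RPL11, RPS18, RPS28 and RPL24. RPL39L was 1.55-fold lower in Y691F with IgM (log2 -0.63, SE 0.0696, adjusted p = 9.34e-13) and 1.27-fold lower untreated (log2 -0.34, SE 0.0605, adjusted p = 2.65e-06). RPL11 was 1.26-fold lower with IgM (log2 -0.33, SE 0.0293, adjusted p = 9.56e-17) and 1.099-fold lower untreated (log2 -0.14, SE 0.0288, adjusted p = 7.48e-05). RPS18 was 1.202-fold lower with IgM (log2 -0.27, SE 0.0280, adjusted p = 1.67e-13) and 1.07-fold lower untreated (log2 -0.095, SE 0.0275, adjusted p = 0.00429). In these 3 genes the Y691F libraries, listed above, lay below all WT libraries with and without IgM.

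RPS28, near the exit of the mRNA channel, had 423, 461 and 432 CPM in Y691F cells with IgM, against 513, 518 and 525 CPM in WT cells with IgM (log2 -0.24, SE 0.0297, adjusted p = 5.72e-11). Untreated, RPS28 had 395, 399 and 387 CPM in Y691F, against 442, 406 and 418 CPM in WT (log2 -0.099, SE 0.0298, adjusted p = 0.00614). RPL24, which bridges the subunits, had 335, 346 and 347 CPM in Y691F cells with IgM, against 406, 396 and 398 CPM in WT (log2 -0.22, SE 0.0295, adjusted p = 8.85e-10), and untreated 277, 295 and 280.5 CPM in Y691F, against 311, 331 and 314 CPM in WT (log2 -0.17, SE 0.0297, adjusted p = 3.24e-06). Both genes were thus lower in Y691F in each condition. RPL35, at the tunnel exit, had its larger difference in untreated cells, with 543, 585 and 554 CPM in Y691F, against 653, 656 and 642 CPM in WT (log2 -0.21, SE 0.0287, adjusted p = 1.69e-09), and a smaller one with IgM (log2 -0.096, SE 0.0286, adjusted p = 0.00397). RPL23A was lower in Y691F by a log2 of -0.14 with IgM and -0.19 untreated (adjusted p = 2.89e-05 and 5.73e-08). RPL17 was called lower in untreated Y691F (log2 -0.24, adjusted p = 1.19e-04) and not with IgM (log2 -0.088, adjusted p = 0.176).

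The 4 genes of the stalk and its base were split, with 2 higher and 2 lower in Y691F under IgM (all tested genes 21.9% and 20.2%). RPLP1 was higher in Y691F with IgM (log2 0.16, SE 0.0274, adjusted p = 9.21e-07) and untreated (log2 0.13, SE 0.0273, adjusted p = 5.30e-05). RPLP0 was likewise higher with IgM (log2 0.13, SE 0.0262, adjusted p = 4.27e-05) and untreated (log2 0.071, SE 0.0262, adjusted p = 0.0286). In both genes every Y691F library, listed above, exceeded every WT library of the same condition, whereas RPLP2 (log2 -0.12, adjusted p = 3.71e-04) and RPL12 (log2 -0.076, adjusted p = 0.0213) were lower in Y691F with IgM. The other rises with IgM were those of RPL36AL (log2 0.22, SE 0.0441, adjusted p = 1.69e-05), RPL10 (log2 0.10, SE 0.0265, adjusted p = 0.00118), RPL28 (log2 0.10, SE 0.0281, adjusted p = 0.00228), RPS2 and RPL13A. The call of RPL13A was lost when the counts of its named pseudogenes were added (log2 0.060, adjusted p = 0.0618). RPL22L1 and RPS9, the genes with the largest IgM response, did not pass the test between the forms in either condition (RPL22L1 log2 -0.0062 and 0.041, RPS9 log2 -0.029 and -0.022).

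**Figure D5:**
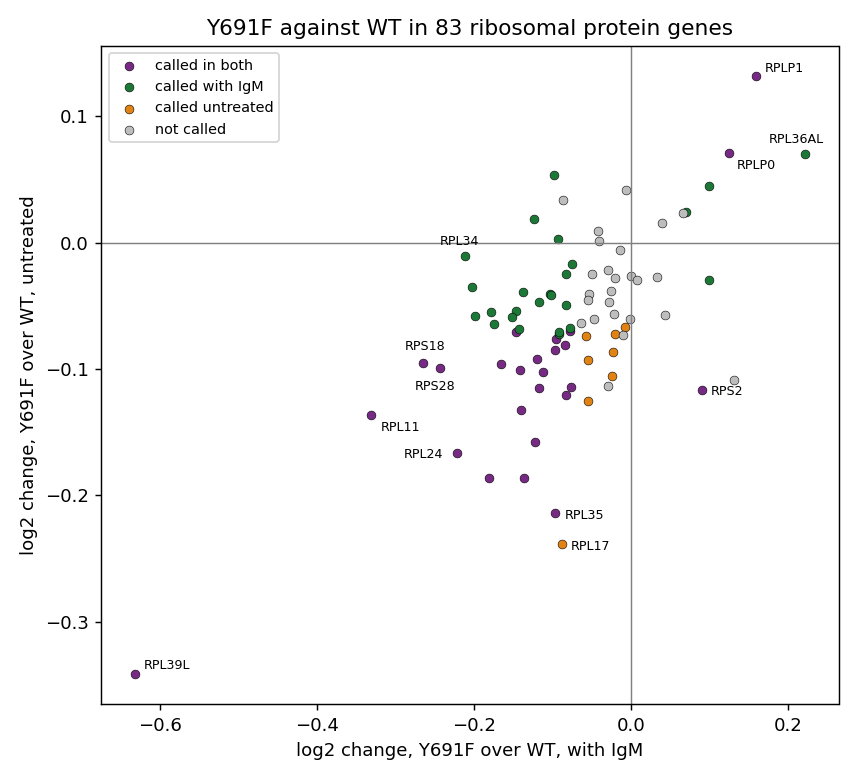
Log2 difference of Y691F over WT with IgM (x axis) and untreated (y axis) for the 83 tested ribosomal protein genes, coloured by where the difference passed the test. Most points lie below 0 on both axes, RPL39L is farthest from the rest at -0.63 and -0.34, and RPLP0 and RPLP1 lie above 0 on both.

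The comparisons of Y691F with WT with IgM and untreated share no library. Over the 83 genes their log2 differences had a Pearson r of 0.61 and a Spearman rho of 0.43. A fall in Y691F was called in both conditions for 22 genes and a rise in both for RPLP0 and RPLP1. RPS2 was called in opposite directions, higher in Y691F with IgM (log2 0.090, SE 0.0267, adjusted p = 0.00391) and lower untreated (log2 -0.12, SE 0.0267, adjusted p = 2.68e-04). A call with IgM alone came for 25 genes, 21 of them lower in Y691F, and a call in untreated cells alone for 8 genes, all lower. In the remaining 25 genes no call was made in either condition. These joint counts and correlations were not computed over all tested genes, so they cannot be set against a background. In the small subunit head 9 of 14 genes were lower in Y691F with IgM (median log2 -0.099) and 9 of 14 untreated (-0.094). In the body 6 of 17 were lower and 1 higher with IgM (median -0.041), and 5 of 17 lower untreated (-0.042). In the tunnel group 6 of 8 were lower with IgM and 4 of 8 untreated. Of all tested genes 20.2% were lower and 21.9% higher with IgM, and 16.1% lower and 15.1% higher untreated.

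Whether the IgM response itself differed between the forms was tested with the interaction, the response in Y691F minus that in WT. It was called for 15 of the 83 genes, 3 with a higher and 12 with a lower response in Y691F, where 14.7% and 11.0% of all tested genes were called (25.7% either way). The share of lower responses among the ribosomal protein genes (14.5%) was near that background, and the median difference was -0.0082, against 0.0069. With library totals alone 2 were higher and 24 lower, and 46.4% of all calls were higher, against 57.1% with TMM. RPS2 had the largest positive difference (log2 0.21, SE 0.0378, adjusted p = 7.18e-06), followed by RPL28 (0.13) and RPL35 (0.12). On the negative side RPL39L (log2 -0.29, SE 0.0925, adjusted p = 0.0125), RPL34 (log2 -0.20, SE 0.0464, adjusted p = 3.83e-04), RPL11 (log2 -0.19, SE 0.0410, adjusted p = 1.05e-04) and RPS18 (log2 -0.17, SE 0.0392, adjusted p = 3.70e-04) led. RPL34 had 191, 210.2 and 192 CPM in Y691F cells with IgM, against 177, 180.0 and 182 CPM untreated (log2 0.14, adjusted p = 1.32e-04), and 227, 237 and 222 CPM in WT cells with IgM, against 183, 183 and 177 CPM untreated (log2 0.34, adjusted p = 5.95e-16), so its rise was smaller in Y691F, where it turned negative with library totals alone (-0.032).

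The ribosomal protein genes with other names, FAU and GNB2L1, were measured as well. GNB2L1, which encodes RACK1 on the small subunit head, rose with IgM to 1714 ± 7.16 CPM in Y691F, against 1286 ± 10.9 CPM untreated, and to 1798 ± 14.4 CPM in WT, against 1361 ± 30.3 CPM untreated (log2 0.41 and 0.40, SD over n = 3, edgeR adjusted p = 1.10e-25 and 5.88e-25). FAU, made as a fusion of a ubiquitin-like protein with RPS30, had 459.6 ± 5.56 CPM in Y691F cells with IgM, against 388 ± 15.1 CPM untreated (log2 0.24, adjusted p = 1.78e-12). In WT it had 469.8 ± 6.88 CPM with IgM, against 466 ± 8.45 CPM untreated (log2 0.011, adjusted p = 0.721), and its level in untreated Y691F cells was lower than in untreated WT cells (log2 -0.26, adjusted p = 5.89e-13).

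The other TOP mRNAs, for elongation and initiation factors and their partners, rose with IgM as well. Of 20 tested, 19 rose in Y691F (median log2 0.41) and 17 in WT (0.40), where 37.1% of all tested genes rose in Y691F and 38.4% in WT. NPM1, a nucleolar protein of ribosome assembly, rose by 1.25 in Y691F and 1.15 in WT (adjusted p = 1.61e-56 and 3.84e-54), and EEF2, which moves the ribosome along the mRNA, by 0.76 and 0.64 (adjusted p = 6.16e-42 and 1.18e-36). EIF4B was the TOP mRNA that fell in Y691F (log2 -0.10, adjusted p = 8.38e-04), with no call in WT (log2 -0.060, adjusted p = 0.0517). Between the forms this list was split, with 6 higher and 7 lower in Y691F under IgM (median 0.0072), where 21.9% of all tested genes were higher and 20.2% lower. IMPDH2, which makes guanine nucleotides, was higher in Y691F with IgM (log2 0.26, adjusted p = 5.14e-12) and lower untreated (log2 -0.29, adjusted p = 3.55e-13), the pattern also seen in RPS2.

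The 77 genes of mitochondrial ribosomal proteins also rose more often than they fell with IgM. Of these, 49 rose and 11 fell in Y691F (median 0.23), where 37.1% of all tested genes rose and 38.7% fell. In WT 50 rose and 11 fell (median 0.21), where 38.4% of all tested genes rose and 38.5% fell. Between the forms, 26 were lower and 7 higher in Y691F with IgM (median -0.085), and 23 lower and 1 higher untreated (-0.091). Of all tested genes 20.2% were lower and 21.9% higher with IgM, and 16.1% lower and 15.1% higher untreated. Among the genes that control TOP mRNAs, EIF4E, the cap-binding protein, rose with IgM by 0.95 in Y691F and 0.901 in WT (adjusted p = 3.60e-30 and 3.79e-29). EIF4EBP1, which holds EIF4E inactive until mTOR phosphorylates it, fell (log2 -0.85 and -1.06, adjusted p = 6.18e-25 and 1.24e-32). LARP1 rose by 0.21 and 0.13 (adjusted p = 1.32e-10 and 3.11e-05). Of these 15 genes 9 rose and 5 fell in Y691F, and 7 rose and 7 fell in WT. The WT counts are near the background of 38.4% higher and 38.5% lower over all tested genes, and in Y691F that background was 37.1% and 38.7%.

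Chaperones that guard single ribosomal proteins before assembly split. RPF2, which with RRS1 brings the 5S particle into the large subunit, rose with IgM to 42.2 ± 1.91 CPM in Y691F, against 17.4 ± 0.931 CPM untreated, and to 49.6 ± 1.92 CPM in WT, against 22.5 ± 0.783 CPM untreated (log2 1.28 and 1.14, SD over n = 3, edgeR adjusted p = 2.98e-34 and 1.31e-32). TSR2, the escort of RPS26, had 13.1 ± 0.751 CPM in Y691F cells with IgM, against 31.2 ± 0.537 CPM untreated, and 14.5 ± 0.478 CPM in WT cells with IgM, against 28.9 ± 0.891 CPM untreated (log2 -1.25 and -0.997, edgeR adjusted p = 4.61e-30 and 5.62e-24). RPS26 itself rose by 0.41 in Y691F and 0.31 in WT (adjusted p = 5.23e-20 and 3.59e-14). In all, 6 of the 10 chaperone genes rose and 2 fell in Y691F (all tested genes 37.1% and 38.7%), and 7 rose and 2 fell in WT (all tested genes 38.4% and 38.5%). Of 13 genes for the rescue and quality control of stalled ribosomes, 11 rose in each form, where 37.1% of all tested genes rose in Y691F and 38.4% in WT. PELO, which enters stalled ribosomes, rose by 1.01 in Y691F and 1.06 in WT (adjusted p = 2.03e-31 and 1.01e-33), and its partner HBS1L by 1.24 and 1.11 (adjusted p = 4.01e-42 and 1.09e-37).

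RPL5 and RPL11 act on MDM2 as free proteins, so its level is given beside them. MDM2 rose with IgM by 0.70 in Y691F and 0.72 in WT (adjusted p = 2.33e-29 and 1.98e-30). CDKN1A, an inhibitor of cyclin-dependent kinases, rose by 0.98 and 0.63 (adjusted p = 2.28e-42 and 1.07e-28). Protein levels were not measured.

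Reads of ribosomal protein genes can be shared with their processed pseudogenes, of which the table names 1015, 675 of them with at least 1 count. In 57 of the 85 genes the named pseudogenes held under 5% as many counts as the gene, and in 7 over 50%, with 115% for RPSA, 107% for RPL7, 96.5% for RPS3A, 77.2% for RPL15, 67.6% for RPL9, 61.9% for RPL36A and 55.9% for RPS26. When these counts were added to their genes, the test of Y691F against WT under IgM called 6 higher and 42 lower. Over all tested genes it then called 3296 higher and 3062 lower. The calls of RPSA (log2 -0.058, adjusted p = 0.0720) and RPL7 (log2 -0.057, adjusted p = 0.0936) were lost in that comparison and RPL32 was called lower (log2 -0.070, adjusted p = 0.0292), and RPL36A was called lower in untreated Y691F cells (log2 -0.16, adjusted p = 0.00298). Some members also overlap a gene on the opposite strand with many counts of its own, as RPL36 does with LONP1 (74.9% of the counts of RPL36), RPS28 with ELAVL1 (45.9%), RPL28 with UBE2S (25.3%) and RPL6 with PTPN11 (21.4%), and RPS13 overlaps PIK3C2A on its own strand (19.7%). The libraries mark the strand, but no source used here says whether the counting used it, so the values of these genes are less certain.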

How the data were processed

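The table of gene counts and RPKM covers 12 strand-specific polyA+ libraries. Per the file headers it gives a read count and an RPKM value per gene and library. STAR 2.5.0b, DESeq2 and GRCh38 are named in the submitters' processing notes. For the read counter, annotation release and strand setting: not given in the sources used here. RPKM values, deposited by the authors, served only for ratios within gene pairs and imply the authors' gene lengths.

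Counts, as deposited, were tested with the quasi-likelihood test of edgeR 4.0.16 (R 4.3.3; TMM, filterByExpr, robust; checked on simulated data) on all 12 libraries, 1 coefficient per group, with Benjamini-Hochberg adjustment over the 15112 tested genes. A gene was called at adjusted p under 0.05. Every adjusted p is from this test, 2-sided, unless another is named. SE is the size of the log2 change over the square root of F. CPM is edgeR's counts per unit of TMM-scaled library size. The library totals set the precision of each value.

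Members, lists and naming rule were chosen with earlier results of these data known. Always named were the 5S and stalk genes, RPS6 and the paralog pairs, then the 5 largest rises and falls per comparison with separated libraries (interaction: without that condition), and up to 4 genes per other list. Genes outside this rule, such as RPL38, RPS26, LARP1, EIF4B and PELO, were chosen after their values were seen. Some genes count in the totals but are not reported here. Replicate numbers were not treated as pairs. Alternatives were other scalings and filters, DESeq2 1.42.0, limma-voom (limma 3.58.1), a replicate block, 2 groups only, pseudogene counts added, and each library left out.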

Additional observations from a re-analysis of the deposited data

Results flagged for a closer look

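The response to IgM differed between Y691F and WT, by the interaction test of edgeR, in 15 ribosomal protein genes, 14 of which are given here. Of the 83 tested genes 3.61% had a higher and 14.5% a lower response in Y691F. Of all tested genes 14.7% had a higher and 11.0% a lower response (25.7% either way). The share of higher responses was thus below that background, and the share of lower ones near it. The difference (Y691F minus WT, log2) was -0.29 for RPL39L, -0.20 for RPL34, -0.19 for RPL11, -0.17 for RPS18, -0.15 for RPL3, -0.14 for RPS28, -0.14 for RPS29, -0.14 for RPL22, -0.12 for RPL10A, -0.11 for RPL13 and -0.099 for RPL19. It was 0.12 for RPL35, 0.13 for RPL28 and 0.21 for RPS2.

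RPL11 and RPL13 fell with IgM in Y691F and were not called in WT, but RPL11 was called lower in WT under 5 of 22 alternatives (to -0.19), and the call of RPL13 in Y691F was lost under 10 of 22. Of the others, RPL39L, RPS18 and RPL22 fell in both forms and by more in Y691F. RPL34, RPL3, RPS28, RPS29, RPL10A and RPL19 rose in both forms and by less in Y691F, whereas RPL35, RPL28 and RPS2 rose in both and by more in Y691F. With library totals alone the changes of RPL34 and RPS28 in Y691F and of RPL28 in WT lay just below 0. The calls of a difference between the responses for RPL34, RPL11, RPS18, RPL3 and RPS2 were made under every alternative run. Those of RPL19, RPL13 and RPS29 were lost under 12, 11 and 10 of 21 alternatives. RPS28 and RPL28 overlap well-counted genes on the opposite strand, and the part of those reads was not tested.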

How the results depend on the processing

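Across all alternatives, including each library left out, 62 of the 80 IgM calls in Y691F, 66 of 77 in WT, 32 of 50 calls for Y691F against WT with IgM, 16 of 33 untreated and 6 of 15 of the interaction were kept. The share of calls kept was not computed over all tested genes, so these cannot be set against a background. Leaving out 1 library, the counts ran from 73 to 73 higher and 6 to 7 lower for IgM in Y691F, 70 to 72 and 5 to 6 for IgM in WT, 7 to 8 and 30 to 44 for Y691F against WT with IgM, 1 to 2 and 17 to 40 untreated, and 2 to 6 and 7 to 13 for the interaction. Over all tested genes the ranges were 5420 to 5664 higher and 5623 to 5945 lower for IgM in Y691F. For IgM in WT they were 5532 to 5874 and 5640 to 5958. For Y691F against WT with IgM they were 3109 to 3370 and 2448 to 3131. Untreated, they were 1962 to 2402 and 2032 to 2404, and for the interaction 2019 to 2225 and 1337 to 1623. The untreated count of 17 lower genes came without Y691F untreated replicate 1, and the interaction count of 7 without WT with IgM replicate 2. The interaction had 6 higher genes without Y691F untreated replicate 2 and 5 without Y691F with IgM replicate 1, against 3. With the replicate block, the counts were 73 higher and 7 lower, 72 and 5, 7 and 43, 2 and 32, and 3 and 12 in the same order. Over all genes same-numbered libraries did not deviate together (correlations -0.062 to 0.030), so the numbers were not treated as pairs. Over the ribosomal protein genes alone these correlations ran from -0.48 to 0.65. In the 3 pairs of untreated Y691F and WT libraries they were 0.65, 0.27 and 0.38, a hint from the data and not from the design, and there the block ended 1 call and added 2.

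With library totals only, 11 genes fell with IgM in Y691F and 11 in WT, 4 were higher in untreated Y691F, also with a filter of 5 CPM (4), and 24 had a lower response in Y691F, against 12. The interaction had 5 higher genes with DESeq2 size factors (2355 over all tested genes) and 7 lower with the DESeq2 Wald test (1135 over all tested genes). The share of higher calls over all genes in the interaction was 46.4% with library totals, against 57.1%.

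Directions turned with library totals only, which by construction lower every IgM change. In Y691F these included RPL31 (-0.055), RPLP0 (-0.055), RPL34 (-0.032), RPS15A (-0.025), RPLP1 (-0.14), RPL13A (-0.014), RPS27A (-0.045), RPL29 (-0.014), RPSA (-0.055), RPS21 (-0.050), RPL15 (-0.021), RPS27L (-0.15) and RPS28 (-0.014). In WT these included RPLP0 (-0.073), RPL28 (-0.011), RPS15A (-0.061), RPS6 (-0.11), RPLP1 (-0.13), RPL13A (-0.024), RPL13 (-0.088) and RPS21 (-0.0080). RPLP0, RPLP1 and RPS27L in Y691F, and RPLP0, RPS6, RPLP1 and RPL13 in WT, were then called lower. The cause of the other moved counts was not tested. RNA per cell was not measured, so no scaling gives absolute changes.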
